A study of Mus musculus with 8 samples.

Results

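The genes described here encode enzymes that form, rearrange or monitor disulfide bonds in the secretory pathway of luminal cells of the mouse mammary gland. They are the quiescin sulfhydryl oxidases Qsox1 and Qsox2, the endoplasmic reticulum (ER) oxidases Ero1a and Ero1b, the protein disulfide isomerases P4hb, Pdia3, Pdia5 and Pdia6, and the thioredoxin-fold proteins Erp44 and Txndc5. These 10 genes were taken by symbol out of the 24594 genes of the count table. Qsox1 was chosen for its difference between the 2 cell fractions compared below, so its values in that comparison are a description with no test. The other 9 were chosen for their enzyme family, with earlier results of these data known.

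Secreted and membrane proteins receive their disulfide bonds while they fold. In the ER, an ERO1 oxidase takes up electrons from a protein disulfide isomerase and passes them to oxygen, and the reoxidised isomerase then joins or reshuffles cysteines of the folding protein. QSOX enzymes combine an oxidase and a thioredoxin-like domain in 1 chain, act largely in the Golgi apparatus, and are also secreted. Luminal cells of the mammary gland make and secrete proteins rich in disulfide bonds during lactation. Many ER folding genes are known targets of the unfolded protein response, and Ero1a is in addition a known target of the hypoxia-inducible factor and of CHOP, the product of Ddit3.

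RNA was measured in luminal progenitors (LP) and in mature luminal cells, which the labels call luminal differentiated cells, with 4 libraries of each. Both fractions came from the virgin mammary gland of wild type, untreated C57BL/6J mice and, by the methods, mice were used at 12 to 20 weeks of age. Cells with TER-119, CD31 or CD45 on their surface were removed in the sort. The labels name EpCAM, CD49f, cKit and CD14 as its markers, whereas the gates shown in the paper select luminal cells by EpCAM and CD49f, part them by c-Kit and include none for CD14. The labels do not say that the 4 libraries of a fraction came from separate mice, so the p-values given below measure only the spread between these libraries, which may be technical. The methods give 3 biological replicates per condition, and all 4 libraries of each fraction were kept here. RNA was amplified as cDNA before sequencing.

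LP libraries held 5510863 to 7089597 counts on genes and mature libraries 4410049 to 7791593. Levels are given as counts per 1000000 counts of the library (CPM), with the library size taken after TMM scaling, a correction for differences in RNA composition. Fold changes, standard errors (SE) and p-values came from the quasi-likelihood test of edgeR over the 12816 genes that passed its filter on low counts, all 10 enzymes among them. A positive log2 fold change means a higher level in LP, and a gene was called when its Benjamini-Hochberg adjusted p-value over all tested genes was under 0.05. The summed CPM of the LP markers Kit, Elf5, Aldh1a3 and Cd14 was 13574 to 20040 in LP and 244 to 966 in mature libraries, although Kit and, by the labels, Cd14 were sorted on. The summed mature luminal markers Pgr, Esr1, Prlr, Areg and Cited1 reached 306 to 985 CPM in LP and 4325 to 6059 CPM in mature libraries. Most of the LP marker sum in LP was Cd14, at 12142 to 18322 CPM. Prlr, at 3875 to 5442 CPM, made up most of the mature marker sum in mature libraries. Esr1 and Areg overlapped between the fractions.

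Promoter sequences of 4 of the genes, picked with their values known, are shown. Their transcripts were higher in some or all of the mature libraries. This also held for enzymes whose promoters are not printed, P4hb and Erp44 among them. The printed sequences come from RefSeq on GRCm38.p6, run 5′ to 3′ on the strand of the gene, and cover up to 250 bases before its RefSeq start. Those of Ero1b and Pdia6 end where an annotation has the gene begin further upstream. Capitals in Qsox1 (chr1:155812900-155813149, minus strand) and Ero1a (chr14:45318573-45318822, minus strand) mark the core letters ACGTG or GCGTG of the hypoxia response element on either strand. Capitals in Ero1b (chr13:12565633-12565817, plus strand) and Pdia6 (chr12:17266339-17266544, plus strand) mark the ER stress response element, which is CCAAT, any 9 bases and CCACG, on either strand. Hypoxia cores are not marked in Pdia6, although its printed stretch matches GCGTG on either strand at 125 and 79 bases before its RefSeq start.
Qsox1: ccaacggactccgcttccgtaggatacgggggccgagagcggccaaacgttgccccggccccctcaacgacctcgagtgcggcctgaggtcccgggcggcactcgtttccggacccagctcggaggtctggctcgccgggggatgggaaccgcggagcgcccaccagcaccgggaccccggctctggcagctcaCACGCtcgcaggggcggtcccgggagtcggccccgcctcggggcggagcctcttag
Ero1a: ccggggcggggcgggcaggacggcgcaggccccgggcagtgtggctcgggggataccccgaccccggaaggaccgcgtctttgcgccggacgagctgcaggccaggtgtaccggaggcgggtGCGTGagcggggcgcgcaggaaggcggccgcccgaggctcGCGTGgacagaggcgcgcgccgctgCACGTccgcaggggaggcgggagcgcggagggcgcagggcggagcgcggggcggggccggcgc
Ero1b: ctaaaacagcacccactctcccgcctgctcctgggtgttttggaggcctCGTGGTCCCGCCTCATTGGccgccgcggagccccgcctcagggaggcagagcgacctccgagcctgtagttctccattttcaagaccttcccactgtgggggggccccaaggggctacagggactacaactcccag
Pdia6: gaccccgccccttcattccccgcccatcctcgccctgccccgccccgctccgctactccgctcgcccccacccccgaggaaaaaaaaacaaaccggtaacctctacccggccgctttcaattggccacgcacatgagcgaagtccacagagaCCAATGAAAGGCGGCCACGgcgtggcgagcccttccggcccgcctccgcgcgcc

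The ER stress response element was present in 0.113% of 32851 RefSeq promoter windows of 250 bases and in those of 2 of the 10 enzymes, 201 bases before the start of Ero1b and 98 bases before that of Pdia6, starts that lie 65 and 44 bases after the printed stretches. The hypoxia core ACGTG was in a window of 7 of the 10 enzymes and in 16.6% of all windows, and GCGTG in a window of 8 of the 10 and in 28.2% of all windows. The 10 enzymes had 13 windows, and a gene with several windows has more chances of a match. A count of enzymes and a share of windows are thus unlike units and give no measure of excess. The window of Ero1a held 1 match to ACGTG, 63 bases before the start, and 2 to GCGTG, and that of Qsox1 held 1 match to GCGTG and none to ACGTG. In Ero1a, 69 bases of the window were exonic in GENCODE M21, and the gene and strand of that annotation were not recorded. TGACGTGG, the element known as UPRE, which contains ACGTG, was found 138 bases before 1 of the 3 RefSeq starts of Txndc5 and in 0.563% of all windows. The related element ERSE-II (ATTGG, any 1 base and CCACG) and TGATGCAAT (the amino acid response element) were not found in the windows of the 10 enzymes, and were present in 0.0304% and 0.167% of all windows. A match is a run of letters and not evidence of binding, and no match says only that these letters were not in this window.

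Both ERO1 oxidases were higher in mature luminal cells than in LP. Ero1a was 11.2-fold and Ero1b 2.28-fold higher, and these were the 2 of the 9 enzymes other than Qsox1 that passed the test. This share of 22.2% compares with 24.7% of all 12816 tested genes, made up of 10.9% with the higher level in LP and 13.8% with the higher level in mature cells. Qsox1, not counted in these 9, was 3.97-fold higher in mature cells. None of the isomerases P4hb, Pdia3, Pdia5 and Pdia6 passed the test, and neither did Qsox2, Erp44 or Txndc5. The median log2 fold change was -0.20 over the 9 enzymes and near 0 over all tested genes.

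**Figure D1:**
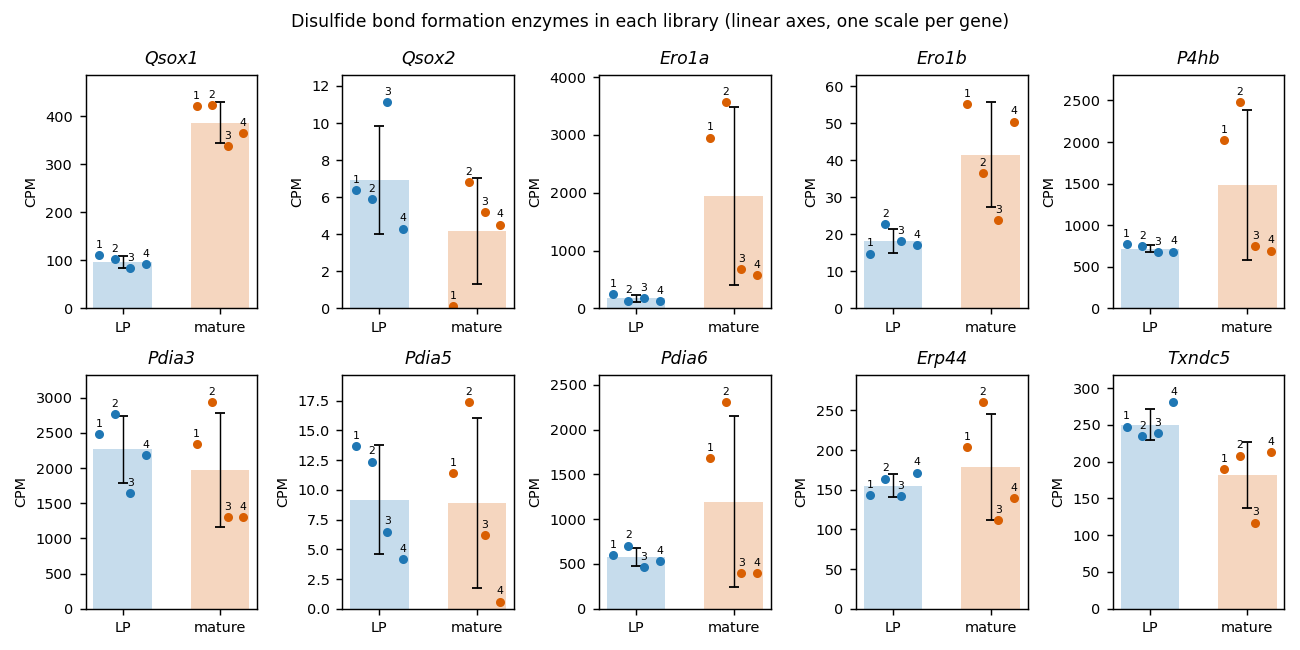
CPM of each of the 10 enzymes in the 4 LP (blue) and 4 mature (orange) libraries, 1 panel and 1 linear axis per gene. Points are libraries numbered by replicate, bars are means and error bars are 1 SD. Qsox1 ran from 338 to 424 CPM in the mature libraries, and Qsox1, Ero1a, P4hb and Pdia6 are highest in mature replicates 1 and 2.

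Qsox1 encodes a secreted and Golgi-resident sulfhydryl oxidase and lies on chromosome 1 (155778155 to 155812899, minus strand). Its level was 112, 103, 83.8 and 91.7 CPM in LP replicates 1 to 4 and 422, 424, 338 and 366 CPM in mature replicates 1 to 4. Every mature library was above every LP library, and neither fraction varied much within itself, the highest mature library being 1.25 times and the highest LP library 1.33 times the lowest. The means were 97.5 ± 12.3 CPM in LP and 387 ± 42.5 CPM in mature cells (SD, n = 4), a log2 fold change of -1.99 with an SE of 0.160. Over 15 alternative settings or sets of libraries the log2 fold change stayed between -2.07 and -1.84. Both ends of that range came from sets of libraries chosen after the values had been seen. All these values describe the difference for which Qsox1 was chosen and are no support for it. In bulk libraries, fewer cells with a transcript and less of that transcript per cell cannot be told apart. An exon of Gm37539 overlaps Qsox1 on the opposite strand, and whether counting used strand is not given in the sources used here.

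Qsox2 encodes the paralog of Qsox1 and had the lowest level per length of the 10 enzymes in both fractions. It had 6.39, 5.89, 11.1 and 4.30 CPM in LP replicates 1 to 4 and 0.141, 6.83, 5.20 and 4.52 CPM in mature replicates 1 to 4. The fractions overlapped, and mature replicate 1 stood below all other libraries, with 1 count where the others had 26 to 67. The log2 fold change was 0.74 with an SE of 0.772, and edgeR's quasi-likelihood test gave an adjusted p of 0.524. Without mature replicate 1 the SE was 0.492 and the log2 fold change 0.35.

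Ero1a, an oxidase of the ER, is on chromosome 14 (45283087 to 45318572, minus strand). Its level was 245, 137, 185 and 127 CPM in LP replicates 1 to 4 and 2956, 3567, 675 and 573 CPM in mature replicates 1 to 4. All mature libraries lay above all LP libraries, but they were far from even, with mature replicates 1 and 2 well above mature replicates 3 and 4. With a log2 fold change of -3.48 (SE 0.595), it passed edgeR's quasi-likelihood test at an adjusted p of 0.00246. The call held in all 15 alternatives, in which the log2 fold change ran from -4.18 to -1.83 and the adjusted p from 2.80e-06 to 0.0124. The weakest log2 fold change, -1.83, came when mature replicates 1 and 2 were left out. That setting, and the one without mature replicates 3 and 4 that gave -4.18, were chosen after the values had been seen. The published list of mature luminal genes of this study was chosen on these libraries and holds both Qsox1 and Ero1a, so it is no independent evidence of their direction.

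Ero1b, the second ERO1 oxidase, is on chromosome 13 (12565818 to 12609533, plus strand) and is best known from cells specialised in secretion. Its level was 14.8, 22.7, 18.3 and 17.2 CPM in LP replicates 1 to 4 and 55.3, 36.5, 23.8 and 50.5 CPM in mature replicates 1 to 4. The fractions did not overlap, although mature replicate 3 was only just above the highest LP library. At a log2 fold change of -1.19 (SE 0.287), edgeR's quasi-likelihood test gave an adjusted p of 0.0129. Without mature replicates 1 and 2 it was -1.01 and no longer passed, with an adjusted p of 0.0812, the highest of a range that began at 0.00156. Those libraries were picked for leaving out after their values had been seen. Of the distinct words of 51 bases in its transcripts, 9.17% also occurred in transcripts of other genes, against at most 1.33% for any other of the 10 enzymes, and how such reads were counted is not given in the sources used here.

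The balance between the ERO1 oxidases differed between libraries too. The ratio of their CPM, which is not corrected for length, was 16.5, 6.03, 10.2 and 7.40 in LP replicates 1 to 4 and 53.5, 97.7, 28.3 and 11.4 in mature replicates 1 to 4. Mature replicate 4 lay inside the LP range, and the other mature libraries lay above it. On the log2 scale the ratio averaged 3.22 ± 0.634 in LP and 5.17 ± 1.33 in mature cells (SD, n = 4), a difference of -1.95. An exact two-sided permutation test of this difference gave p = 0.0571, where 4 against 4 libraries can give no less than 0.0286. A larger change of Ero1a than of Ero1b was thus not shown by this test.

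P4hb, the founding protein disulfide isomerase and also a subunit of collagen prolyl 4-hydroxylase, had 773, 745, 679 and 684 CPM in LP replicates 1 to 4. In mature replicates 1 to 4 it had 2027, 2479, 747 and 696 CPM. Mature replicates 1 and 2 were above every LP library, and mature replicates 3 and 4 fell inside the LP range. The log2 fold change of -1.05 (SE 0.384) did not pass edgeR's quasi-likelihood test (adjusted p = 0.0715). Over the alternatives its adjusted p ranged from 0.000110, without mature replicates 3 and 4, to 0.972, without mature replicates 1 and 2. Both of these pairs of libraries were picked for leaving out after their values had been seen. The log2 fold change without mature replicates 1 and 2 was 0.011.

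Pdia6, an isomerase that works beside the chaperone BiP, followed P4hb across the libraries. It had 602, 705, 469 and 536 CPM in LP replicates 1 to 4 and 1685, 2304, 394 and 401 CPM in mature replicates 1 to 4. Mature replicates 1 and 2 were the highest of all 8 libraries, and mature replicates 3 and 4 were the lowest. Its log2 fold change of -1.05 (SE 0.519) did not pass edgeR's quasi-likelihood test (adjusted p = 0.167). This log2 fold change was 0.55 without mature replicates 1 and 2 and -1.74 without mature replicates 3 and 4, and the adjusted p over all alternatives ran from 0.000342 to 0.507. Both of these pairs were picked after their values had been seen, and the 0.000342 came without mature replicates 3 and 4. Exons of Atp6v1c2 overlap Pdia6 on the opposite strand.

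Pdia3 (ERp57), which serves glycoproteins held by calnexin and calreticulin, had the highest level per length of the enzymes. Its level was 2478, 2762, 1647 and 2183 CPM in LP replicates 1 to 4 and 2339, 2931, 1307 and 1297 CPM in mature replicates 1 to 4. The fractions overlapped widely, and mature replicates 3 and 4 were the lowest of all 8 libraries. With a log2 fold change of 0.20 (SE 0.296), edgeR's quasi-likelihood test gave an adjusted p of 0.657. Its sign turned to -0.17 without mature replicates 3 and 4, and without mature replicates 1 and 2 it passed the test as higher in LP (log2 fold change 0.81, adjusted p = 0.0394, where the range over alternatives was 0.0394 to 0.869). The libraries left out in these settings were picked after their values had been seen. Exons of Catsper2 overlap Pdia3 on the opposite strand.

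Pdia5, a less studied isomerase of the ER, had 13.6, 12.4, 6.47 and 4.16 CPM in LP replicates 1 to 4 and 11.4, 17.3, 6.21 and 0.603 CPM in mature replicates 1 to 4. The ranges overlapped, and in each fraction replicates 1 and 2 were above replicates 3 and 4. A log2 fold change of 0.060 with an SE of 0.746 was too imprecise to give a direction (edgeR adjusted p = 0.966).

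Erp44 encodes a thioredoxin-fold protein that cycles between the ER and the Golgi apparatus and returns ERO1 and unassembled proteins to the ER. Its levels were 144, 164, 142 and 172 CPM in LP replicates 1 to 4 and 204, 260, 112 and 139 CPM in mature replicates 1 to 4. Mature replicates 1 and 2 were above the LP range and mature replicates 3 and 4 below it. Its log2 fold change of -0.20 (SE 0.244) was not called by edgeR (adjusted p = 0.587), and leaving out mature replicate 2 alone turned it to 0.056.

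Txndc5 (ERp46), a protein disulfide isomerase with several thioredoxin-like domains, was the one enzyme whose LP libraries all lay above its mature libraries. It had 248, 234, 239 and 280 CPM in LP replicates 1 to 4 and 190, 208, 117 and 213 CPM in mature replicates 1 to 4. Libraries of the fractions did not overlap in 29.5% of all tested genes, with LP above in 14.0% and, as for Qsox1, Ero1a and Ero1b, mature cells above in 15.5%. Even so, its log2 fold change of 0.46 (SE 0.196) did not pass edgeR's quasi-likelihood test (adjusted p = 0.114). Its adjusted p was between 0.0720 and 0.236 in all 15 alternatives and its log2 fold change between 0.33 and 0.61. Exons of Bmp6 and of a further gene model overlap Txndc5 on the opposite strand.

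**Figure D2:**
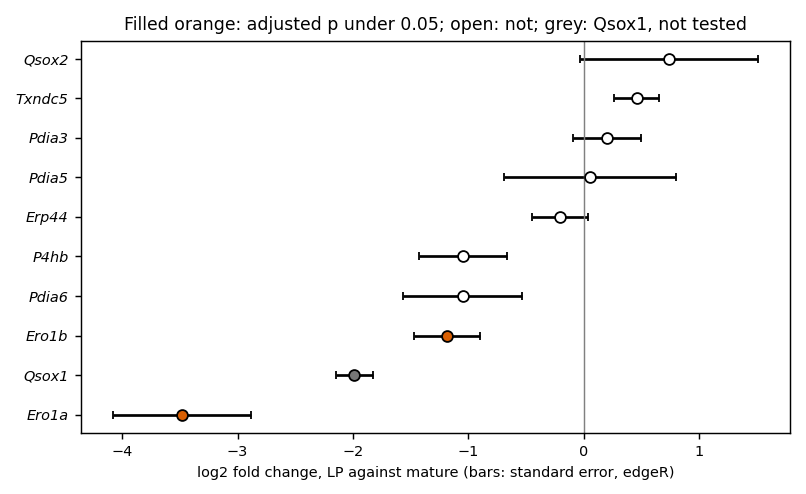
Log2 fold change of the 10 enzymes, LP against mature, with bars of 1 SE from edgeR. Filled orange points passed an adjusted p of 0.05, open points did not, and the grey point is Qsox1, which was not tested. Ero1a (-3.48) and Ero1b (-1.19) are the filled points.

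The plot of fold changes shows that P4hb and Pdia6, each with a log2 fold change of -1.05, were nearly as far from 0 as Ero1b but had wider errors. The mature libraries differed among themselves in these genes. The highest mature library was 6.22 times the lowest for Ero1a, 5.85 times for Pdia6, 3.56 times for P4hb, 2.33 times for Erp44 and 2.26 times for Pdia3. In the LP libraries the same ratio was 1.92, 1.50, 1.14, 1.21 and 1.68 in the same order of genes. The ratio for Qsox1 was 1.25, with mature replicates 1 and 2 again above replicates 3 and 4. Ero1b (2.32) and Txndc5 (1.82) had mature replicate 3 as their low point.

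With mature replicates 3 and 4 left out, 5 of the 9 enzymes other than Qsox1 passed edgeR's test, namely Ero1a, Ero1b, P4hb, Pdia6 and Erp44, all higher in mature cells, where 26.5% of all genes tested in that fit passed. With mature replicates 1 and 2 left out, 2 passed, Ero1a as higher in mature cells and Pdia3 as higher in LP, where 16.0% of all genes tested passed. Both settings were chosen after the values had been seen. Within LP, replicates 1 and 2 were also above replicates 3 and 4 for Qsox1, P4hb, Pdia3, Pdia5 and Pdia6. Pdia6 had 602 and 705 CPM in LP replicates 1 and 2 against 469 and 536 CPM in LP replicates 3 and 4. The other enzymes were not divided in this way in LP. Replicates 1 to 4 carry the label numbers 573, 574, 674 and 718, and the labels give no batch that would part mature replicates 1 and 2 from 3 and 4.

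Other values of these libraries moved along with that division. The summed fibroblast markers Col1a1, Col3a1, Pdgfra and Dcn were 134 and 173 CPM in mature replicates 1 and 2, 20.6 and 20.8 CPM in mature replicates 3 and 4, and 7.35 to 37.9 CPM in LP. All 4 of these markers had a count in some library, and nearly all of the sum in mature replicates 1 and 2 was Dcn, at 132 and 154 CPM, while Col1a1 had no count in either. A count of 0 allowed up to 0.416 to 0.788 CPM (3 counts per library, counting error only). The summed LP markers went the other way, with 244 and 355 CPM in mature replicates 1 and 2 against 966 and 715 CPM in mature replicates 3 and 4. The part of either in the levels of Ero1a, P4hb or Pdia6 was not tested.

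Markers of other cell types were read in the same way. Plasma cells, which are rich in ER enzymes, were followed by Jchain, Mzb1, Tnfrsf17 and Derl3, 3 of which had a count, for a sum of 9.13 to 14.8 CPM in LP and 17.0 to 26.7 CPM in mature libraries. Their receptor gene Tnfrsf17 had no count in any library, and Jchain had counts in mature replicate 1 alone. The leukocyte list, with Cd3e at 0 throughout, summed to at most 2.56 CPM, the adipocyte list to at most 0.433 CPM and the endothelial list, with Kdr at 0, to at most 8.48 CPM. The basal list summed to 3.75 to 16.7 CPM in LP and 8.30 to 45.9 CPM in mature libraries, the highest in mature replicate 3. The erythroid genes Hba-a1 and Alas2 summed to 1.87 to 79.2 CPM in LP and 6.04 to 66.1 CPM in mature libraries. In contrast, the luminal genes Krt8, Krt18, Krt19 and Epcam summed to 11277 to 12493 CPM in LP and 22792 to 40819 CPM in mature libraries. Most of the sum in mature libraries was Krt18, at 13410 to 25188 CPM. Epcam overlapped between the fractions, with 1925 to 2570 CPM in LP and 1595 to 2287 CPM in mature libraries.

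Levels of different genes can be compared only per length, here as CPM per kilobase of the exons joined over the GENCODE M21 basic transcripts of a gene. In LP the order ran from Pdia3 at 819 ± 172 through Pdia6 at 266 ± 46.2, P4hb at 252 ± 16.3, Txndc5 at 74.6 ± 6.19, Erp44 at 59.2 ± 5.69, Ero1a at 39.3 ± 12.2 and Qsox1 at 29.1 ± 3.66 to Pdia5 at 5.06 ± 2.53, Ero1b at 2.81 ± 0.510 and Qsox2 at 1.49 ± 0.632 CPM per kb (SD, n = 4). In this order the libraries did not overlap between Pdia3 and Pdia6, between P4hb and Txndc5, between Txndc5 and Erp44, or between Qsox1 and Pdia5. The other neighbours overlapped.

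In mature cells the level per length of Pdia3 was 711 ± 291, of Pdia6 550 ± 440, of P4hb 520 ± 316 and of Ero1a 440 ± 349 CPM per kb, and these 4 overlapped from neighbour to neighbour. Qsox1 followed at 116 ± 12.7 CPM per kb, below every library of Ero1a and above every library of Erp44, which was at 68.2 ± 25.4. Txndc5 at 54.3 ± 13.3 overlapped Erp44 and was above Ero1b at 6.39 ± 2.19. Pdia5 at 4.91 ± 3.95 and Qsox2 at 0.898 ± 0.615 CPM per kb came last, each overlapping the gene before it. Qsox1 thus stood after Ero1a in both orders, and the mean of Ero1a was below those of Txndc5 and Erp44 in LP and above them in mature cells.

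Other genes of disulfide formation and ER folding were followed in 7 lists of 75 genes, 67 of them tested, none of which holds one of the 10 enzymes. The lists were chosen with earlier results of these data known. The shares called in them are therefore a description and no measure of excess. Of the 67, 7 were called in favour of LP and 14 in favour of mature cells, or 31.3% in all, against the 24.7% of all tested genes. With mature replicates 3 and 4 left out the number called rose from 21 to 36, and that over all genes from 3161 of 12816 to 3556 of 13433. That setting was chosen after the values had been seen.

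**Figure D3:**
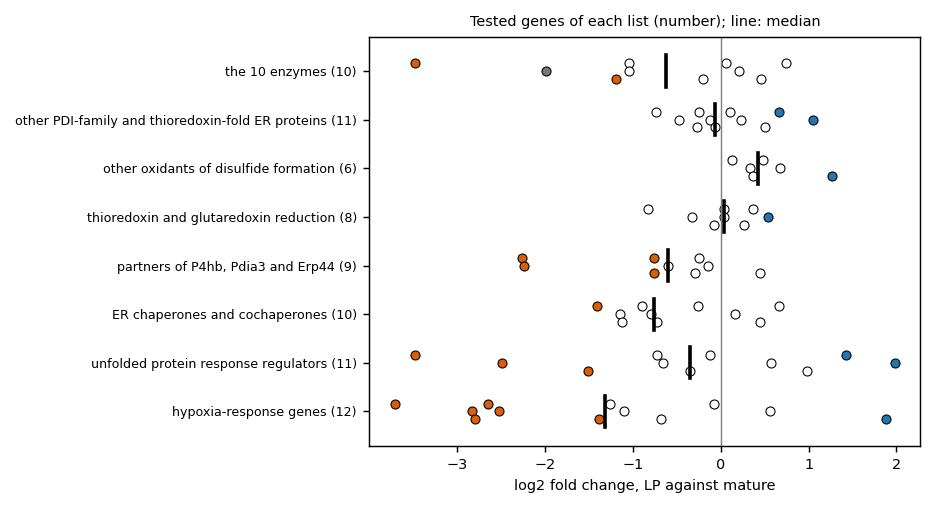
Log2 fold change, LP against mature, of every tested gene of the 10 enzymes and of 7 pathway lists, with the number tested in brackets. Blue points were called higher in LP, orange points higher in mature cells, open points were not called, the grey point is Qsox1 (not tested), and the line is the median of the list. The medians run from -1.32 for the hypoxia-response genes to 0.42 for the other oxidants.

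Of 16 further thioredoxin-fold proteins of the ER, 11 were tested and 2 were called, both higher in LP, a share of 18.2% beside 24.7% of all tested genes. They were Txndc12 (ERp18), with a log2 fold change of 0.66 (edgeR adjusted p = 0.0235), and Txndc16, with 1.05 (edgeR adjusted p = 0.0246). Neither held in all 15 alternatives, where the adjusted p reached 0.127 and 0.0946, respectively, and mature replicate 4 stood above the other mature libraries in Txndc12. Pdia4, of the highest mean CPM among them, had a log2 fold change of -0.25 (edgeR adjusted p = 0.668) with 626, 758, 271 and 204 CPM in mature replicates 1 to 4, the division seen for Pdia6. The median of the list was -0.061.

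Of 7 other oxidants of disulfide formation in the ER or in mitochondria, 6 were tested and 1 was called (16.7%, beside 24.7% of all tested genes). Prdx4, the ER peroxiredoxin that oxidises isomerases with hydrogen peroxide, was 2.41-fold higher in LP (log2 fold change 1.27, edgeR adjusted p = 0.0239), and this call was lost in 6 of 15 alternatives. All 6 tested oxidants, among them the vitamin K epoxide reductase genes Vkorc1 and Vkorc1l1, had a positive log2 fold change, from 0.13 to 1.27. In the opposing reductive system, Txn1, which encodes cytosolic thioredoxin, was called 1.45-fold higher in LP (edgeR adjusted p = 0.0144). It was the only call among 8 thioredoxin and glutaredoxin genes, or 12.5%. Gsr, glutathione reductase and the highest of these 8 in mean CPM, had a log2 fold change of -0.83 (edgeR adjusted p = 0.0853).

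Partner proteins of P4hb, Pdia3 and Erp44 held 4 calls among 9 tested genes, all higher in mature cells, a share of 44.4% beside 24.7% of all tested genes. P4ha1 and P4ha2 encode the catalytic subunits that join P4hb in collagen prolyl 4-hydroxylase, and were 4.71-fold (edgeR adjusted p = 0.000432) and 4.78-fold (edgeR adjusted p = 0.0173) higher. P4ha1 was even in mature replicates 1 to 4 (105, 124, 94.7 and 88.7 CPM), whereas P4ha2 was divided like P4hb (325, 330, 85.9 and 43.7 CPM) and overlapped LP, where replicate 3 stood apart at 65.7 CPM. The call of P4ha2 was lost in 5 of 15 alternatives, the replicate block among them (adjusted p = 0.0618, within a range of 0.000193 to 0.284). Both ends of that range came from settings chosen after the values had been seen. Sumf1, a sulfatase-activating enzyme retained by ERp44, was called with a log2 fold change of -0.75, and Itpr1, the ER calcium channel bound by ERp44, with -0.76. The call of Itpr1 was lost in 9 of 15 alternatives. Canx, calnexin and the highest of these genes in mean CPM, had a log2 fold change of -0.60 (edgeR adjusted p = 0.141).

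Of 10 ER chaperones and cochaperones, Hspa5, the gene of the chaperone BiP, was the only one called (10%, beside 24.7% of all tested genes). At 2.66 times the LP level in mature cells it passed edgeR's quasi-likelihood test narrowly (adjusted p = 0.0479), a call that was lost in 9 of 15 alternatives, the replicate block included (adjusted p = 0.0570), over which the adjusted p ran from 0.000191 to 0.612. The median log2 fold change of the 10 was -0.76. Most of these genes showed the division of P4hb and Pdia6, for example Hspa5 itself at 15040.1, 19960, 6345 and 3625 CPM and Hsp90b1 at 3430, 5101, 1210 and 993 CPM in mature replicates 1 to 4. In LP replicates 1 to 4, Hspa5 had 4890, 4989, 3201 and 3826 CPM and Hsp90b1 1491, 1506, 957 and 978 CPM. With mature replicates 3 and 4 left out, 7 of the 10 were called, where 26.5% of all genes tested in that fit passed. That setting was chosen after these values had been seen and leaves out libraries that were low in these genes.

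**Figure D4:**
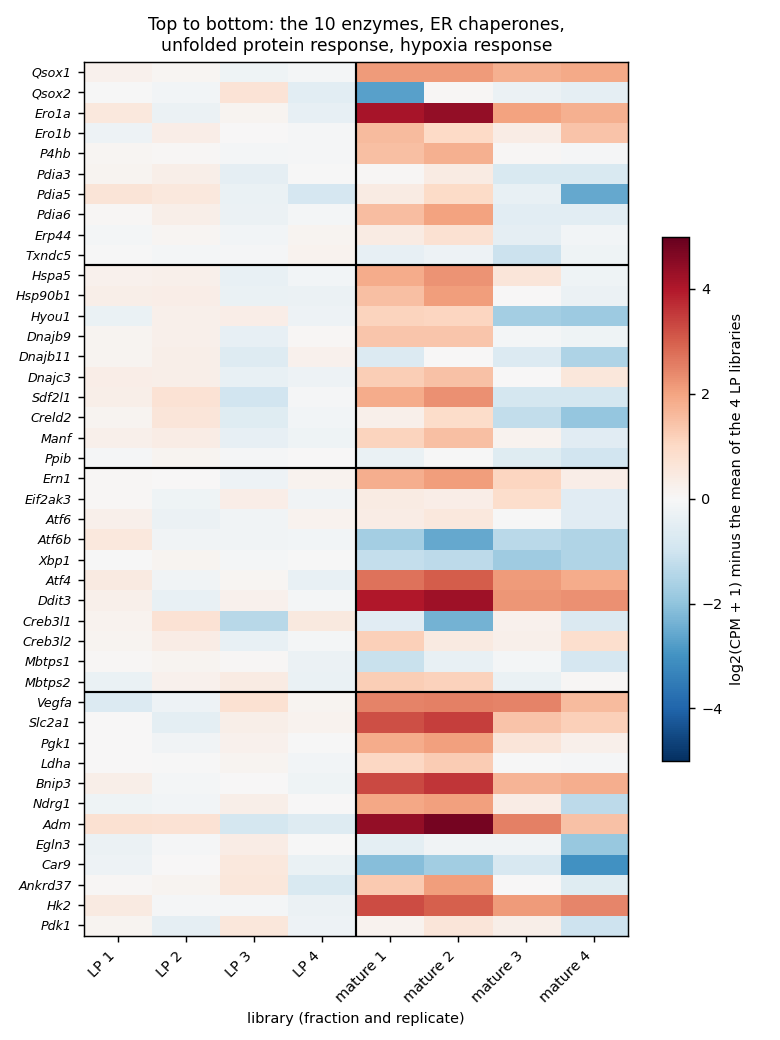
Level of each gene in each of the 8 libraries, as log2(CPM + 1) minus the mean of the 4 LP libraries, red above and blue below that mean. Rows from top to bottom are the 10 enzymes and the tested ER chaperones, unfolded protein response regulators and hypoxia-response genes. Qsox1 is red in all 4 mature libraries, while P4hb, Pdia6, Hspa5 and Hsp90b1 are red in mature replicates 1 and 2 and near the LP level in mature replicates 3 and 4, except Hspa5, which stays above it in replicate 3.

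Regulators of the unfolded protein response went in both directions, with 2 calls for LP and 3 for mature cells among 11 tested genes. The share called was 45.5%, beside 24.7% of all tested genes. Atf4, the transcription factor of the integrated stress response, was 5.60-fold higher in mature cells (edgeR adjusted p = 0.000432). Ddit3, which encodes CHOP, was 11.2-fold higher (edgeR adjusted p = 0.000859), with 413, 486, 119 and 125 CPM in mature replicates 1 to 4 and 19.0 to 30.5 CPM in LP. Ern1, which encodes the sensor IRE1 and is named here after its value was seen, was 2.86-fold higher. Xbp1, whose RNA is cut by IRE1, was 2.68-fold higher in LP (edgeR adjusted p = 0.000742), as was Atf6b 3.97-fold (edgeR adjusted p = 0.00944), with LP replicate 1 apart from the other LP libraries. Counts per gene do not separate the spliced from the unspliced Xbp1 RNA.

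Hypoxia-response genes held 7 calls among 12 tested, 6 of them higher in mature cells. The share called was 58.3%, beside 24.7% of all tested genes, of which 13.8% were called higher in mature cells. Like the other lists, this one was chosen with earlier results of these data known. Hk2 (hexokinase), Bnip3 (mitophagy), Slc2a1 (the glucose transporter GLUT1) and Vegfa (a vascular growth factor) had log2 fold changes of -2.79, -2.83, -2.64 and -2.52 and adjusted p-values of 0.000269, 0.00127, 0.00375 and 0.00371 in edgeR's quasi-likelihood test. All 4 calls held in all 15 alternatives, although Vegfa was lower in mature replicate 4 than in the other mature libraries. Adm (-3.71) and Pgk1 (-1.38) were also called higher in mature cells, and Car9 (1.88) higher in LP, the latter 3 named after their values were seen. Ldha, the highest of the 12 in mean CPM, had a log2 fold change of -0.68 and did not pass (edgeR adjusted p = 0.130). The heat map shows that Hk2, Slc2a1, Bnip3, Pgk1 and Adm were above LP in all 4 mature libraries, as was Ero1a. Like Ero1a, they were also higher in mature replicates 1 and 2 than in mature replicates 3 and 4. Atf4, Ddit3 and Ern1 of the unfolded protein response list, and Qsox1, showed the same pattern, and its cause was not tested.

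The genes whose pattern was most like that of Qsox1 were found by Pearson's r of log2(CPM + 1) over the 8 libraries, given as a description because every value rests on the same libraries and mainly on the distance between the fractions. They were Gm7008 (0.993), H4c9 (0.991), Triobp (0.991), Gm11110 (0.991) and Tspan13 (0.990). Among the other 9 enzymes r was 0.906 for Ero1a, 0.850 for Ero1b, 0.651 for P4hb, 0.449 for Pdia6, 0.277 for Erp44, -0.0887 for Pdia5, -0.187 for Pdia3, -0.502 for Qsox2 and -0.640 for Txndc5.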

How the data were processed

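Reads were trimmed by the authors (cutadapt 4.2) and mapped to mm10 (Bowtie2 2.3.5.1), with versions as in the submitters' processing notes, and the deposited values are raw counts per gene, not normalised, for 24594 Entrez Gene IDs. The counting program, its annotation, its use of strand and its handling of reads that match several genes are not given in the sources used here. Symbols came from RefSeq GRCm38.p6, the same build as mm10, through 24570 matching IDs. The counts of 18975 genes were above 0 in some library.

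Counts were normalised with TMM and filtered with filterByExpr in edgeR 4.0.16 (R 4.3.3), and 4 LP libraries were compared with 4 mature libraries by the quasi-likelihood F-test, without pairing, with Benjamini-Hochberg adjustment over 12816 genes. The SE was the absolute log2 fold change divided by the square root of F. DESeq2 1.42.0 and RLE factors served as alternatives, as did a minimum of 10 counts in each of the libraries or none at all. The replicate number as a block and each library left out were others. Fits without mature replicates 1 and 2 and without mature replicates 3 and 4, chosen after the data had been seen, complete the 15 alternatives. The fit was tested on simulated data. Python 3.11.15 with scipy 1.17.1 gave the permutation test. The common biological coefficient of variation was 0.393.

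The members and lists were chosen with earlier results of these data known. Text names all 10 enzymes, up to 4 called genes per list by smallest p, the most abundant tested gene of each list, and the 5 genes most like Qsox1. No 2 libraries were copies, since their chi-square per degree of freedom over genes was 11.9 to 89.0 within fractions.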

Additional observations from a re-analysis of the deposited data

Results flagged for a closer look

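Single libraries stood apart from the other 3 of their fraction in 4 of the 62 groups of 4 libraries examined, where chance alone gives 3.1. The measure is the gap from the extreme library to its nearest neighbour divided by the range of the group. Txndc12 was high in mature replicate 4 (152 CPM against 108 to 113.5 CPM, ratio 0.8752). P4ha2 was high in LP replicate 3 (65.74 CPM against 31.91 to 33.54 CPM, ratio 0.9519). Atf6b was high in LP replicate 1 (18.59 CPM against 11.07 to 11.51 CPM, ratio 0.9408). Vegfa was low in mature replicate 4 (10.7 CPM against 20.53 to 21.28 CPM, ratio 0.9295). None of the 10 enzymes was among them.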

How the results depend on the processing

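The number of called genes was 3161 and ranged from 2179 to 3791 over 15 alternatives, and from 2338 to 3414 when single libraries were left out. Of the 9 enzymes other than Qsox1, 2 to 3 were called with single libraries left out, and of the listed genes 14 to 28. The log2 fold change of Qsox1 then ran from -2.06 to -1.92 and the difference in the log2 ratio of Ero1a to Ero1b from -2.51 to -1.47. Ero1a kept its call in every alternative. P4hb passed under DESeq2 (-1.03, adjusted p = 0.0167) and without mature replicate 3 (-1.23, adjusted p = 0.0242) or 4 (-1.24, adjusted p = 0.0265), within a range of 0.000110 to 0.972 over its alternatives. Both ends of that range came from settings chosen after the data had been seen.

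Leaving out mature replicates 3 and 4, chosen after the data had been seen, raised the enzymes called from 2 to 5 and the listed genes called from 21 to 36, and turned Pdia3 to -0.17 and Pdia5 to -0.59. Leaving out mature replicates 1 and 2, also chosen then, turned P4hb to 0.011, Pdia6 to 0.55, Erp44 to 0.32, Pdia4 to 0.73 and Ldha to 0.070, and lowered the genes called higher in mature cells from 1767 to 1171. With single libraries left out, the log2 fold change of Erp44 ran from -0.34 to 0.056 and that of Pdia4 from -0.46 to 0.12, both positive only without mature replicate 2. That of Pdia5 ran from -0.30 to 0.62, and was negative without LP replicate 1, LP replicate 2, mature replicate 3 or mature replicate 4. The cause was not tested.

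LP and mature libraries share replicate numbers, and the labels do not say what a number joins. Deviations from the fraction means correlated between same-numbered libraries with r of 0.113, 0.0618, 0.148 and 0.0844, and every LP library and 3 of 4 mature libraries correlated best with their own number, a hint from the data only. With the replicate number as a block, 3027 genes, 2 of the 9 enzymes and 20 listed genes were called, Qsox1 was at -1.99, and the paired sign-flip test of the Ero1a to Ero1b ratio (-1.95) gave an exact p of 0.125. That is the smallest two-sided p that 4 pairs can give, and the ratio was higher in the mature library in all 4 pairs. Precision was lowest for Qsox2 and Pdia5, with SEs of 0.772 and 0.746.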

Other observations

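Further ER genes fell below the filter or belong to no comparison. Agr2, a protein disulfide isomerase of mucus-secreting cells, had 3.37 and 4.47 CPM in mature replicates 1 and 2, no count in mature replicates 3 and 4, and at most 1.29 CPM in LP. Agr3, of the same list and also below the filter, was not divided in this way. It had 5.48, 4.47, 0.144 and 6.18 CPM in mature replicates 1 to 4 and at most 0.830 CPM in LP. Derl3, a gene of ER-associated degradation that also served as a plasma cell marker, had 21.9, 13.9, 4.48 and 1.36 CPM in mature replicates 1 to 4 and 1.66 to 8.63 CPM in LP. These genes are given as values, without a test.

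The haemoglobin gene Hba-a1 had 75.9 CPM in LP replicate 4 and 62.7 CPM in mature replicate 4, which share the label number 718. The other LP libraries had 1.87 to 2.82 CPM, and mature replicates 1 to 3 had 10.1, 6.04 and 26.9 CPM. Erythroid cells carry TER-119, which the sort removed.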
